A study of Mus musculus with 31 samples.

Results

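The set described here is 38 genes of mouse liver that carry out or regulate the oxidation of fatty acids in mitochondria and the making of ketone bodies. They were picked by gene name, as the rows of the 2 deposited expression tables whose gene name equals a listed symbol. All 38 were found among 41549 genes in the table of 5-month livers, and 37 among 36333 genes in the table of old livers. Plin2 was not analysed here in the old livers, since no row of that table carries the name. Of the 38, 27 are enzymes or carriers of the pathway and 11 are regulators, secreted factors, lipid droplet proteins and other targets of the receptor PPAR alpha.

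RNA was sequenced from mouse livers bred for deletion of Myc, a transcription factor of growth, Mlx, the shared partner of the glucose-responsive factors MondoA and ChREBP, or both. The 5-month livers were labelled as fasted for 14 h. They were 6 wild types of strain C57/B6 (WT, 4 males and 2 females), 6 with floxed Myc (MycKO, 4 males and 2 females), 4 with floxed Mlx (MlxKO, all male) and 5 with both (DKO, all male). The labels give the 3 knockout groups a Cre-ERT2 at the Rosa26 locus, which is active in most cell types. The second set, labelled as not fasted, held 5 liver adenomas labelled MLXKO, with Mlx floxed and Cre-ERT2 under the albumin (Alb) driver of hepatocytes, from mice of 14 to 17 months, 4 labelled female and 1 male. Their controls were 5 C57/B6 livers of 17 months (old WT), 3 male and 2 female. Every mouse, WT included, had tamoxifen at 75 mg/kg on 5 days at 28 days of age. In comparisons with WT, loss of the gene cannot be told apart from Cre-ERT2 or strain, and in the adenomas it cannot be told apart from tumour formation either. The labels do not say that libraries came from separate animals, and the p-values therefore reflect variation among the sequenced samples, of which some may be technical.

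Long-chain fatty acids are joined to coenzyme A, carried into the mitochondrion on carnitine, and shortened in repeated rounds by an acyl-CoA dehydrogenase, a hydratase, a second dehydrogenase and a thiolase. Electrons from the first step pass through the electron transfer flavoprotein to the respiratory chain. In fasted liver the pathway supplies acetyl-CoA for ketone bodies, and the nuclear receptor PPAR alpha is known for raising many of its genes in that state. ChREBP with Mlx binds carbohydrate response elements made of a pair of E-boxes, and Myc with its partner Max binds the E-box CACGTG.

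RefSeq promoter windows of 300 bases (250 before to 50 after the start, GRCm38.p6) were matched by symbol for 31 of the 38 members, which have 35 windows. They are shown because both genes that rose in MlxKO against WT, Plin2 and Aldh3a2, are among the 4 members whose window holds CACGTG. That choice rests on these same data, and a link between the letters and the calls was not tested. Both calls were lost in males only and without the sex term. The letters were searched on both strands, which read alike for this word. It was found in 4 of 35 member windows (11.4%) and in 7.15% of all 32851 windows. An exact pair of these words with 5 bases between them was in 0 member windows and in 0% of all 32851 windows. Since no window of any gene held it, this search cannot tell members from other genes. It does not show that members lack carbohydrate response elements, and pairs with other letters were not searched. A direct repeat of AGGTCA with 1 base between, the form PPAR binds, searched on both strands, was in 0 member windows and in 0.0396% of all. With matches this rare among all windows, 0 among 35 does not set the members apart either. A match describes the letters and not a bound site. The 4 windows follow 5′ to 3′ on the gene's strand, with the match in capitals.
Plin2, chr4:86670010-86670309, minus strand: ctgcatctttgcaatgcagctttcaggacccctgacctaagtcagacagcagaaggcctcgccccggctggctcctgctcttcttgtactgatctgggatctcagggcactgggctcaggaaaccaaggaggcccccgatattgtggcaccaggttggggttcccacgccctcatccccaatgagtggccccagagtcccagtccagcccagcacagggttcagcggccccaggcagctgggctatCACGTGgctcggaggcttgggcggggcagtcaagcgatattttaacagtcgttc
Aldh3a2, chr11:61267137-61267436, minus strand: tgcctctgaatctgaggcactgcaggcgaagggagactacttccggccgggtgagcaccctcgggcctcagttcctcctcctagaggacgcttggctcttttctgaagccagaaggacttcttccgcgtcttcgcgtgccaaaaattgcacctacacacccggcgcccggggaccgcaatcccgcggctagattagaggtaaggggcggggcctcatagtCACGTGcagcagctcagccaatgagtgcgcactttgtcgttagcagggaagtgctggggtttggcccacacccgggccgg
Fgf21, chr7:45615441-45615740, minus strand: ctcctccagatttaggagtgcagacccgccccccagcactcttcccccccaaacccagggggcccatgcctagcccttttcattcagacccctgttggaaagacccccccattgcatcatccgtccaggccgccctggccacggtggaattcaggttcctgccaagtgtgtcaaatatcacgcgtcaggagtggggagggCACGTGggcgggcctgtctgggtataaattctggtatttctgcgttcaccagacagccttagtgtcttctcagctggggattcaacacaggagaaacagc
Acsm5, chr7:119526015-119526314, plus strand: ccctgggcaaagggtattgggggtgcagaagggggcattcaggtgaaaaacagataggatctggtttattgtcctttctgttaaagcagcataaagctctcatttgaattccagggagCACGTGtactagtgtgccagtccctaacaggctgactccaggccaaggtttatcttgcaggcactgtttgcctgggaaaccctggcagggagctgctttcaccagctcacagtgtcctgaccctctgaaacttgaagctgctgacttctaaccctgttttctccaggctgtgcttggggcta

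Each 5-month library held 18226467 to 28476797 counts. The old WT libraries held 16036626 to 18690029 and the adenoma libraries 34590164 to 37087490. Myc stood at 3.61 to 22.1 CPM (counts scaled to a common library size, with TMM factors) in WT and at 0.72 to 2.61 in MycKO. Mlx stood at 24.5 to 29.0 CPM in WT and at 15.7 to 20.8 in MlxKO, so neither group overlapped WT. DKO held 0.492 to 2.40 CPM of Myc and 14.7 to 18.6 of Mlx. In the second set Mlx was 19.9 to 29.9 CPM in the adenomas and 31.8 to 43.8 in old WT. Adenoma 5 is labelled male, but its Y-linked genes were at 0 and its Xist was high, as in the other 4. A gene is called changed at an adjusted p under 0.05 (edgeR quasi-likelihood test, Benjamini-Hochberg over all genes tested, with sex as labelled as a covariate). Each set was fitted alone, and no test crosses the 2 sets. Replicate values are listed in the order of replicate number, and fold changes are log2 with their SE.

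Per length, the members spanned from traces to some of the highest levels in the 5-month WT livers. On the authors' TPM scale, Fabp1, which carries fatty acids in the cytosol, averaged 7300 ± 2480 TPM (SD, n = 6). Cyp4a14 and Cyp4a10, which hydroxylate the far end of fatty acids, averaged 7023 ± 4144 and 4757 ± 2634 TPM. Their ranges of mean ± SD overlapped, and the thiolase Acaa2 followed at 1356 ± 264 TPM, apart from them. The next 27 members ran down to 87.4 TPM with the mean ± SD of each overlapping that of the next among them. The lowest were Acad10 at 12.1 ± 3.12 TPM and Ppargc1a, a coactivator of mitochondrial genes, at 3.16 ± 1.25 TPM. In old WT Fabp1 again came first at 8515 ± 3680 TPM (n = 5), Acaa2 second at 1330 ± 138, and Cyp4a14 stood at 472 ± 198. The 2 tables were normalised separately and differ in age and feeding, so no test sets these levels against each other.

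In the adenomas 25 of the 37 members were lower than in old WT and 0 were higher, where 7.68% of all 13954 genes tested were called lower, 8.74% higher and 16.4% in all. The log2 fold change was below 0 for 35 of 37, with a median of −1.12, against a median of 0.04 over all genes. Of the 27 enzymes and carriers 22 fell and all 27 had a log2 fold change below 0. For 27 of 37 members every adenoma lay below every old WT liver, which held for 9.15% of all genes. Together the 27 enzymes and carriers made up 0.532% ± 0.078 (SD, n = 5) of the authors' TPM in the tumours, against 0.775% ± 0.044 (n = 5) in the old WT livers. By the authors' deposited table, an FDR p under 0.05 was reached by 28 members, 27 of them higher in old WT. In bulk tissue, fewer cells of a type and less RNA per cell cannot be told apart.

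**Figure D1:**
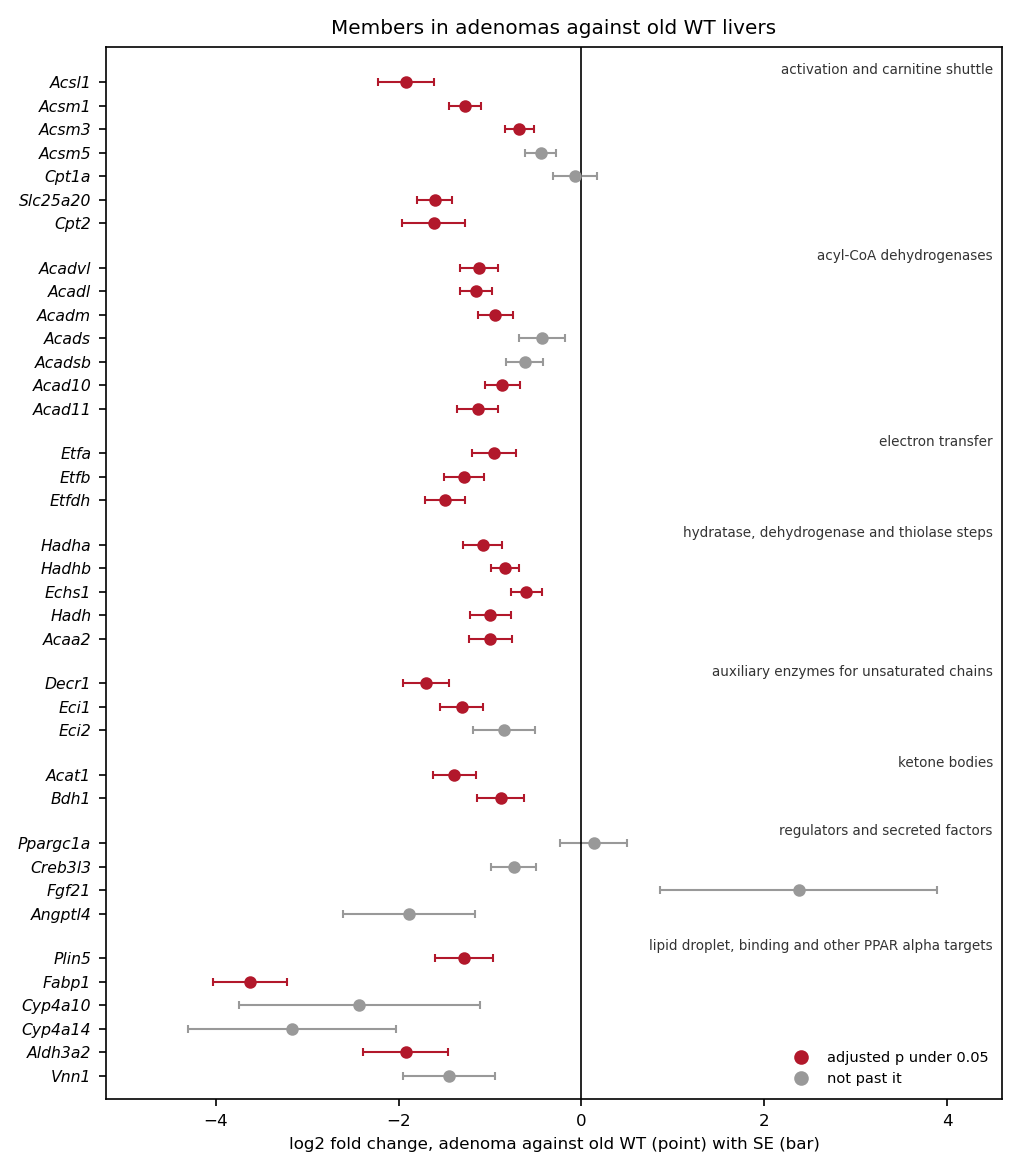
Log2 fold change of 37 members in 5 adenomas against 5 old WT livers (point) with its SE (bar), grouped by role, red where the adjusted p was under 0.05. The enzymes lie to the left of 0, with Cpt1a at −0.07 and Fabp1 at −3.63.

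Activation and the carnitine shuttle fell at 5 of 7 members, and Cpt1a was not among them. Acsl1, which joins long-chain fatty acids to coenzyme A, stood at 337, 305, 435, 538 and 226 CPM in the adenomas and at 1334, 1114, 1178, 1439 and 1709 CPM in old WT, and fell by 1.92 ± 0.30 (adjusted p = 0.00364). Slc25a20, the carrier that moves acylcarnitines across the inner membrane, stood at 44.0, 61.9, 41.3, 35.6 and 40.6 CPM against 144, 132, 115, 161 and 154, and fell by 1.60 ± 0.19 (adjusted p = 0.00109). Cpt2, which returns the acyl group to coenzyme A inside, stood at 57.3, 91.5, 54.6, 157 and 57.6 CPM against 255, 226, 218, 240.1 and 309, and fell by 1.62 ± 0.35 (adjusted p = 0.0128). Every adenoma was below every old WT liver for these 3, and adenoma 4 held the most Acsl1 and Cpt2 of the adenomas. Cpt1a, the outer-membrane enzyme that limits entry, stood at 339.6, 295, 274, 468 and 257 CPM in the adenomas and 253, 309, 327, 392 and 381 CPM in old WT, and the groups overlapped (log2 −0.07 ± 0.24, adjusted p = 0.87). Acsm1, a medium-chain acyl-CoA synthetase, stood at 132, 169, 186, 188 and 165 CPM against 314, 460.2, 454, 358 and 316, and fell by 1.28 ± 0.17 (adjusted p = 0.00182). Its relative Acsm3 stood at 61.0, 53.3, 54.2, 58.7 and 59.3 CPM against 85.3, 80.1, 87.7, 115 and 129.6, and fell by 0.68 ± 0.16 (adjusted p = 0.0186). The third of these synthetases, Acsm5, ran from 67.8 to 107 CPM against 114 to 143, which did not overlap, but missed the threshold (log2 −0.44 ± 0.17, adjusted p = 0.0962).

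**Figure D2:**
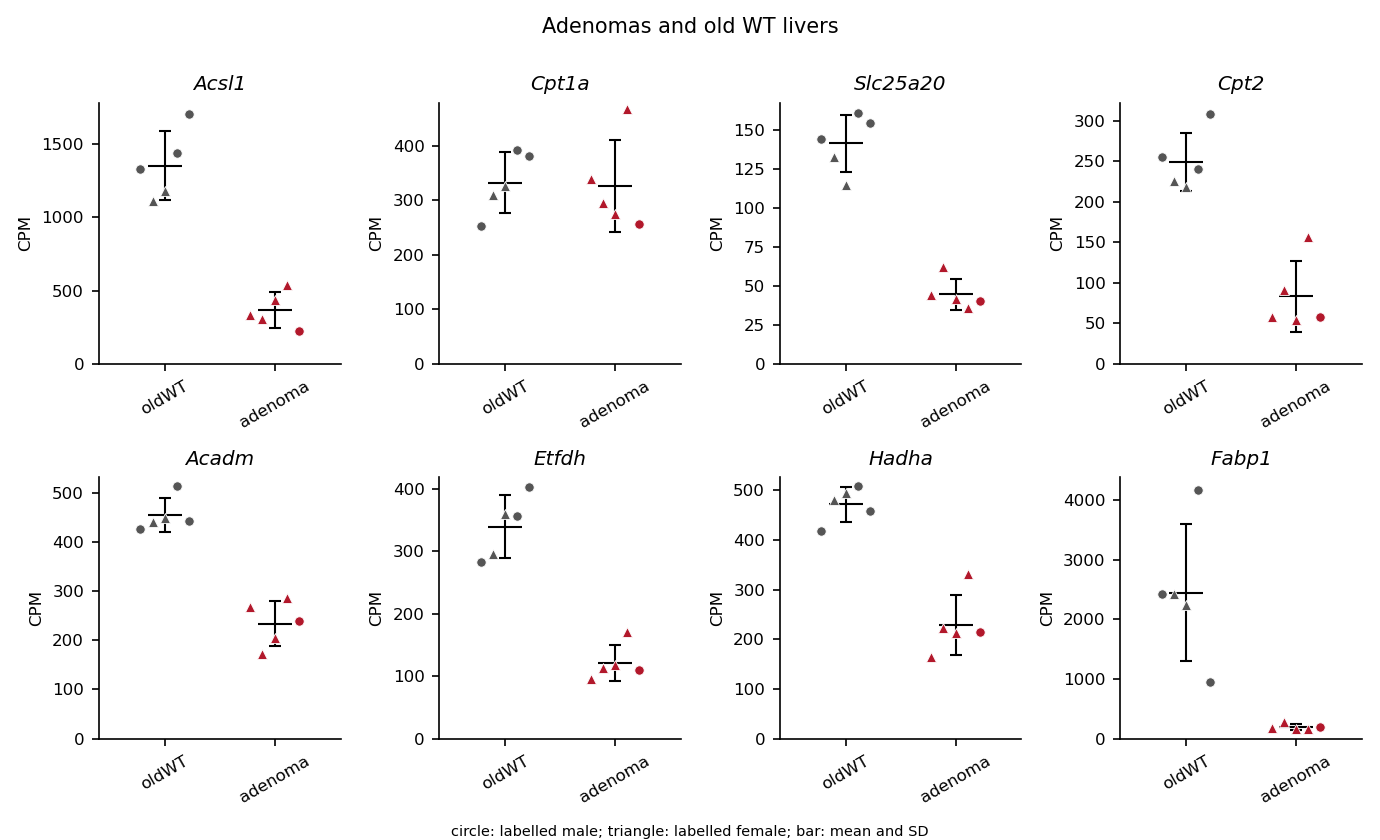
CPM of 8 members in each old WT liver and each adenoma (circles labelled male, triangles labelled female), with the mean and SD. The groups overlap for Cpt1a (257 to 468 against 253 to 392 CPM) and do not overlap for the other 7.

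Of the acyl-CoA dehydrogenases, which take the first step of each round, 5 of 7 fell. Acadvl, for very long chains, stood at 247, 274, 189, 330.2 and 215 CPM in the adenomas against 498, 551, 526, 590.4 and 442 CPM in old WT, and fell by 1.12 ± 0.21 (adjusted p = 0.00655). Acadl, for long chains, stood at 114, 149, 118, 172 and 110.3 CPM against 245, 280.5, 308, 284 and 272, and fell by 1.16 ± 0.18 (adjusted p = 0.00312). Acadm, for medium chains, stood at 268, 173, 204, 287 and 238 CPM against 426, 441, 448, 514 and 443, and fell by 0.94 ± 0.20 (adjusted p = 0.011). The groups did not overlap for any of these 3, nor for Acad10 and Acad11, which are less studied family members. Acad11 stood at 191, 219, 184, 311 and 173 CPM against 405, 400.1, 489.7, 482 and 509, and fell by 1.14 ± 0.22 (adjusted p = 0.00844). Acad10 stood at 25.6, 26.1, 33.2, 34.0 and 33.5 CPM against 34.8, 68.5, 61.7, 55.9 and 43.0, and fell by 0.86 ± 0.19 (adjusted p = 0.0146). The lowest old WT liver for Acad10, replicate 1, was at 34.8 CPM, next to the highest adenoma at 34.0. Acads, for short chains, overlapped at 128 to 291 CPM against 224 to 304 (log2 −0.43 ± 0.25, adjusted p = 0.264). Acadsb, for short branched chains, overlapped at 57.7 to 141 CPM against 129.8 to 198 (−0.62 ± 0.20, adjusted p = 0.0579).

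All 3 genes of electron transfer fell. Etfa, the alpha subunit of the electron transfer flavoprotein, stood at 108, 208, 268, 201 and 237 CPM in the adenomas against 384, 396, 404, 458 and 418 CPM in old WT, and fell by 0.95 ± 0.24 (adjusted p = 0.0246). Etfb, the beta subunit, stood at 118, 122, 136, 205 and 142 CPM against 343, 399, 353, 354 and 237, and fell by 1.28 ± 0.22 (adjusted p = 0.00481). Etfdh, which hands the electrons on to ubiquinone, stood at 95.7, 113, 118, 170.1 and 110.2 CPM against 283, 295, 360.5, 357 and 403, and fell by 1.49 ± 0.21 (adjusted p = 0.00236). Every adenoma was below every old WT liver for all 3, and adenoma 1 was the lowest for each.

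The later steps of the round fell at 5 of 5 members. Hadha, the alpha subunit of the trifunctional protein, stood at 164, 222, 212, 330.5 and 215 CPM in the adenomas against 418, 481, 494, 509 and 458 CPM in old WT, and fell by 1.08 ± 0.22 (adjusted p = 0.00954). Hadhb, its beta subunit, stood at 138, 150.3, 148, 158 and 156 CPM against 222, 257, 280.4, 277 and 310.1, and fell by 0.83 ± 0.15 (adjusted p = 0.00685). Hadhb varied least of all members among the adenomas, with a coefficient of variation of 5.27%. Echs1, the short-chain hydratase, stood at 200.2, 193, 238, 270.5 and 267 CPM against 311, 369, 372, 385 and 359.5, and fell by 0.60 ± 0.17 (adjusted p = 0.0389). Hadh, the short-chain hydroxyacyl-CoA dehydrogenase, stood at 146, 206, 224, 299 and 262 CPM against 392, 504, 428, 502 and 511, and fell by 1.0 ± 0.22 (adjusted p = 0.0151). Acaa2, the thiolase of the last step, stood at 509.8, 506, 418, 760.5 and 511 CPM against 1277, 981, 937, 1308 and 1326, and fell by 1.0 ± 0.23 (adjusted p = 0.0186). The groups did not overlap for any of the 5.

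Auxiliary enzymes and the ketone body genes followed the same direction. Decr1, the dienoyl-CoA reductase for unsaturated chains, stood at 64.0, 109, 41.7, 57.8 and 79.1 CPM in the adenomas against 206, 244, 227, 246 and 243 CPM in old WT, and fell by 1.70 ± 0.25 (adjusted p = 0.00288). Eci1, which shifts double bonds, stood at 93.2, 79.0, 45.7, 95.8 and 58.8 CPM against 159, 196, 158, 194 and 167, and fell by 1.31 ± 0.23 (adjusted p = 0.00559). Both were below old WT in every adenoma, whereas its relative Eci2 reached 199 CPM in adenoma 2, above every old WT liver, and missed the threshold (log2 −0.85 ± 0.34, adjusted p = 0.11). Acat1, which joins acetyl-CoA units at the start of ketogenesis and splits them in ketone use, stood at 129.9, 269, 221, 243 and 239 CPM against 472, 569, 574, 699 and 662, and fell by 1.39 ± 0.24 (adjusted p = 0.00492). Bdh1, which interconverts acetoacetate and hydroxybutyrate, stood at 118, 227, 115, 212 and 139.9 CPM against 264, 274, 293, 361 and 284, and fell by 0.88 ± 0.26 (adjusted p = 0.0403). Neither of these overlapped between the groups.

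The regulators and secreted factors were called at 0 of 4 members. An unadjusted p under 0.05 was reached by 2 of the 4, and by 4637 of all 13954 genes tested. Ppargc1a ran from 3.17 to 15.6 CPM in the adenomas and from 7.31 to 13.1 in old WT. Creb3l3, a hepatocyte transcription factor of fasting, ran from 146 to 298 CPM against 306 to 376, with no overlap (log2 −0.74 ± 0.24, adjusted p = 0.06). Angptl4, a secreted inhibitor of lipoprotein lipase, ran from 5.32 to 69.4 CPM against 39.1 to 93.7. Fgf21, a hormone that liver secretes in fasting, stood at 12.8, 4.20, 1.01, 14.7 and 1.14 CPM in the adenomas and at 0.358, 0.926, 0.295, 4.89 and 1.62 CPM in old WT. Adenomas 1 and 4 were above every old WT liver and the other 3 were not, and the difference was not called (log2 2.38 ± 1.52, adjusted p = 0.302). The authors' deposited FDR p for Fgf21 was 0.0134.

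Lipid droplet, binding and other PPAR alpha target genes fell at 3 of the 6 measured. Fabp1 stood at 172, 286, 167, 164 and 189 CPM in the adenomas against 2432, 2419, 2248, 4180 and 952 CPM in old WT, and fell by 3.63 ± 0.41 (adjusted p = 0.00074), the largest fall of any member. The lowest old WT liver, replicate 5, was still above the highest adenoma, replicate 2. Aldh3a2, the fatty aldehyde dehydrogenase, stood at 231, 299.6, 173, 369 and 56.2 CPM against 541, 585, 634, 691 and 757, and fell by 1.92 ± 0.47 (adjusted p = 0.0205). Plin5, a lipid droplet coat protein of oxidising tissue, stood at 27.6, 22.9, 21.2, 51.6 and 17.4 CPM against 84.5, 60.6, 59.6, 53.8 and 55.7, and fell by 1.28 ± 0.32 (adjusted p = 0.0222). Cyp4a14 ran from 8.56 to 553 CPM against 510 to 1251, and Cyp4a10 from 3.61 to 877 CPM against 240.2 to 912. These spreads were wide and neither was called (log2 −3.17 ± 1.14 and −2.43 ± 1.32, adjusted p = 0.0795 and 0.223). Both belong to a family of near-identical genes whose shared reads the counting may have split, so their levels are uncertain. Vnn1, a pantetheinase and PPAR alpha target, ran from 12.01 to 82.1 CPM against 62.3 to 99.4 and was not called (−1.44 ± 0.51, adjusted p = 0.0719).

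Further genes of the pathway, from a list that holds no member, were lower at 21 and higher at 1 of 49 tested (median log2 −0.76). Among the lower were Acot2, a mitochondrial thioesterase (−1.78 ± 0.32, adjusted p = 0.00622), and Gcdh, the glutaryl-CoA dehydrogenase (−1.48 ± 0.21, adjusted p = 0.00226). The 1 higher gene was Oxct1, which lets tissues burn ketone bodies and is low in hepatocytes, at 14.0 ± 6.91 CPM against 4.65 ± 0.60 (n = 5 each; 1.73 ± 0.33, adjusted p = 0.00777). Of 41 further PPAR alpha axis genes tested, 16 were lower and 0 higher (median −0.60). An unadjusted p under 0.05 was reached by 20 of these 41, and by 4637 of all 13954 genes tested. The largest falls there were those of Fitm1 (−4.66 ± 0.82), Acot1 (−3.63 ± 0.66), Acot3 (−3.46 ± 0.87) and Mgll (−3.42 ± 0.37), with adjusted p of 0.00535, 0.00614, 0.0228 and 0.000666. Ppara itself missed the threshold (−0.66 ± 0.24, adjusted p = 0.081).

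Cell markers moved with this comparison. The summed level of 10 hepatocyte markers was 30440 to 63390 CPM in the adenomas and 113500 to 157300 CPM in old WT. Within it Alb stood at 5346 ± 2447 against 84120 ± 18500 CPM (SD, n = 5 each). Alb was the 1 marker of the 10 called, and the median log2 fold change of the 10 was −0.16, with Apoa1 at 0.20, Hnf4a at −0.28 and Cps1 at −0.40. Pericentral hepatocyte genes were lower at 6 of 16 and summed to 987 to 9484 CPM against 10980 to 17030. Markers of cholangiocytes were higher at 3 of 7 (73.2 to 673 against 61.9 to 80.0 CPM), of stellate cells and fibroblasts at 5 of 10 (146 to 998 against 186 to 388 CPM) and of neutrophils at 4 of 5 tested (8.09 to 85.8 against 4.22 to 9.28 CPM). T and NK cell markers were higher at 2 of 9 tested (9.92 to 39.3 against 3.89 to 7.39 CPM, with Trac at 0 in both groups) and macrophage markers at 1 of 11 (231 to 1842 against 194 to 575 CPM). The part of the cell make-up in the members' fall was not tested. Leaving out adenoma 5, whose sex label its reads contradict, left 13 members called lower with 35 of 37 still below 0, and leaving out old WT 2 or old WT 3 left 15. Females alone by their labels, 4 adenomas and 2 old WT livers, left 4 called (Fabp1, Acsm1, Slc25a20 and Acad10), again with 35 of 37 below 0. Scaling by library totals raised the median of all genes by 0.38, left 20 members called lower, and put Cpt1a above 0.

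Among the fasted 5-month livers, 3 libraries stood apart from the rest of their groups. In WT 2, WT 5 and MycKO 5 Cyp4a14 stood at 1517, 3095 and 3248 CPM, against 7320 to 13430 in the other 9 WT and MycKO libraries and 12480 to 15970 in MlxKO and DKO. Summed over 15 genes known to be higher in fed liver, none of them a member, the same 3 libraries held 7763, 5494 and 4916 CPM, and the other 18 held 786 to 3690. The labels give all 21 the same fast. WT 2 was the lowest WT library for 15 of 38 members, among them Cpt1a at 344 CPM, Acad11 at 341 and Vnn1 at 23.9. MycKO 5 was instead the highest MycKO library for 17 members, among them Acaa2 at 1435 and Fabp1 at 4578 CPM, and the lowest for 9. The median coefficient of variation over the members was 25.9% in WT and 24.9% in MycKO, and 14.0% in MlxKO and 12.7% in DKO.

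**Figure D3:**
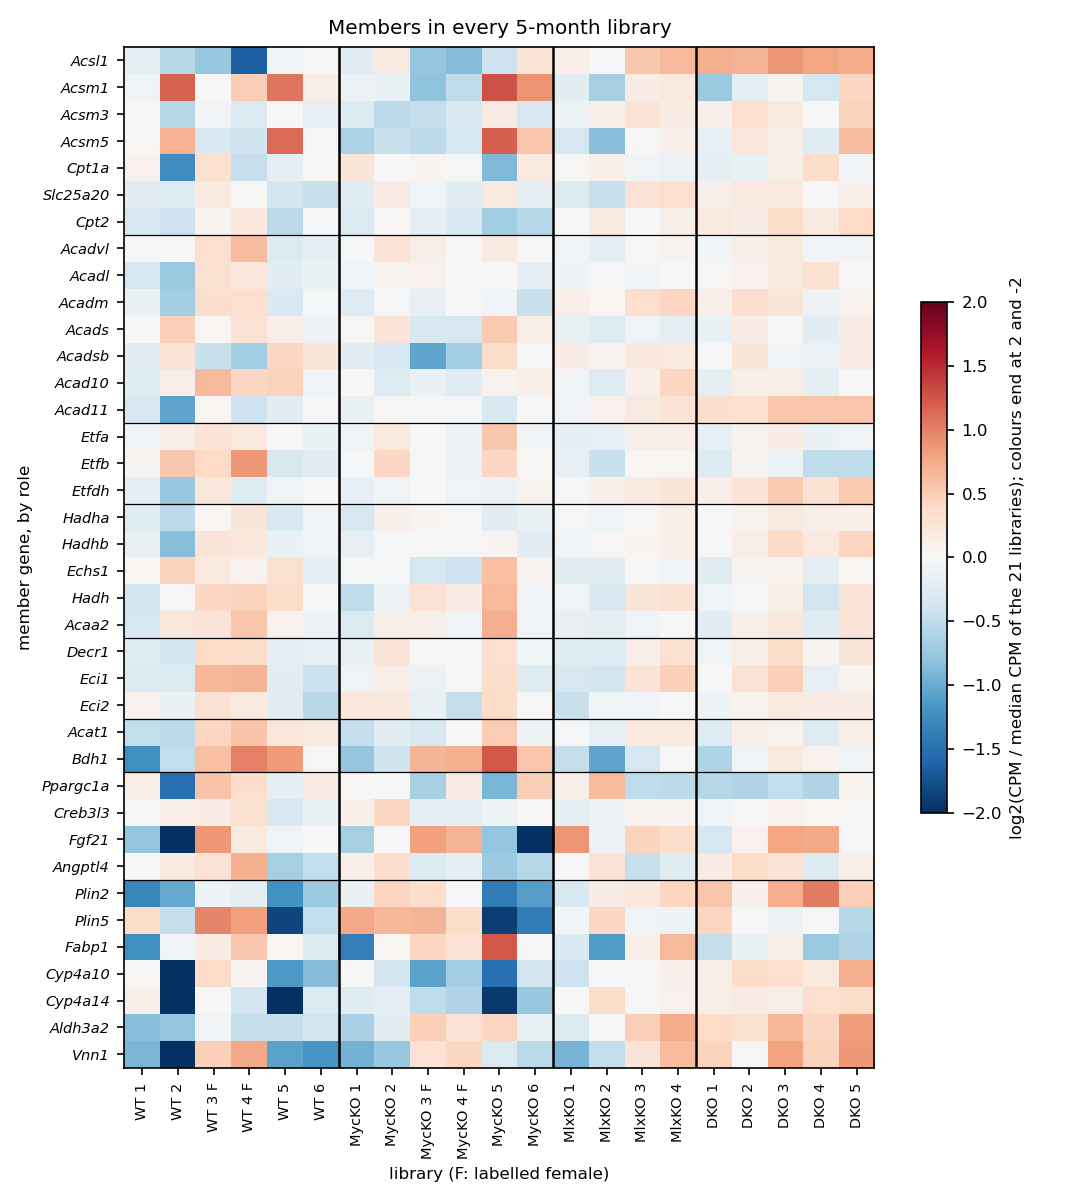
Each of 38 members (rows, by role) in each of 21 libraries of 5-month liver (columns) as log2 of its CPM over the gene's median CPM of the 21. WT 2, WT 5 and MycKO 5 are pale to dark blue at Cyp4a14, Cyp4a10 and Plin5, and the 5 DKO libraries are red at Acsl1 and Acad11.

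In livers with both genes floxed, part of the set was higher. In DKO against WT 9 of 38 members were higher and 1 was lower, where 7.58% of 13397 genes tested were called higher, 10.9% lower and 18.5% in all. The median log2 fold change of the members was 0.26, against −0.02 over all genes, and 23 of 38 were above 0. For 5 members every DKO library lay above every WT library, which held for 4.72% of all genes. By role, 2 of 7 activation and shuttle members rose, 2 of 7 acyl-CoA dehydrogenases, 1 of 3 for electron transfer, 1 of 5 later steps and 3 of 7 lipid droplet and PPAR alpha targets. None of the auxiliary enzymes, ketone body genes or regulators was called.

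Acsl1, the synthetase named above, stood at 765 to 2377 CPM (median 1851) in WT, at 1298 to 2846 CPM (median 1906) in MycKO, at 2598, 2322, 3448 and 3738 CPM in MlxKO and at 3940, 3822, 4337, 4086 and 3986 CPM in DKO. Every DKO library was above every other library at 5 months, and Acsl1 rose by 0.97 ± 0.18 (adjusted p = 0.00188) in DKO against WT. Cpt2 stood at 238 to 397 CPM (median 305) in WT, 212 to 349 CPM (median 281) in MycKO, 343, 391, 344 and 374 CPM in MlxKO and 395, 382, 443, 392 and 455 CPM in DKO, and rose by 0.52 ± 0.14 (adjusted p = 0.014) in DKO against WT. Its highest WT library, the female WT 4, overlapped DKO. The 1 member that fell was Acsm1, at 113 to 272 CPM (median 149) in WT and 71.7, 105, 124, 93.7 and 161 CPM in DKO (log2 −0.94 ± 0.32, adjusted p = 0.0474). The groups overlapped, and WT 2 and WT 5 held the most, at 272 and 251 CPM.

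Acad11 stood at 341 to 726 CPM (median 591) in WT, 571 to 723 CPM (median 696) in MycKO, 677, 752, 805 and 860.1 CPM in MlxKO and 902, 888, 1042, 1040 and 1037 CPM in DKO. Every DKO library was above all the others, and Acad11 rose by 0.80 ± 0.16 (adjusted p = 0.00255) in DKO against WT. Acadl stood at 206 to 425 CPM (median 308) in WT and 352, 366, 394, 428 and 350.4 CPM in DKO, and rose by 0.38 ± 0.13 (adjusted p = 0.0424). Its WT females, at 425 and 399 CPM, lay within the range of the DKO libraries, all male. Etfdh stood at 281 to 551 CPM (median 429) in WT, 422 to 494 CPM (median 448) in MycKO, 462, 507, 534 and 558 CPM in MlxKO and 520, 571, 676, 584 and 681 CPM in DKO, and rose by 0.56 ± 0.14 (adjusted p = 0.011). Hadhb stood at 252 to 543 CPM (median 423) in WT and 456, 498, 601, 523 and 612 CPM in DKO, and rose by 0.44 ± 0.14 (adjusted p = 0.0403). For both genes at least 1 WT female overlapped DKO, and WT 2 was the lowest library of all.

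Plin2, the main coat protein of liver lipid droplets, stood at 894 to 2069 CPM (median 1210) in WT, 842 to 2981 CPM (median 2116) in MycKO, 1782, 2460, 2558 and 2992 CPM in MlxKO and 3237, 2370, 3649, 4559 and 3086 CPM in DKO. No DKO library overlapped WT, and Plin2 rose by 1.60 ± 0.28 (adjusted p = 0.00108). Aldh3a2 stood at 366 to 636 CPM (median 476) in WT, 421 to 919 CPM (median 701) in MycKO, 543, 659, 917 and 1101 CPM in MlxKO and 864, 816, 1048, 874 and 1180 CPM in DKO. DKO and WT did not overlap here either, and Aldh3a2 rose by 1.16 ± 0.20 (adjusted p = 0.00115). Vnn1 stood at 23.9 to 328 CPM (median 97.0) in WT, 100.2 to 258 CPM (median 146) in MycKO, 101, 138, 231 and 298 CPM in MlxKO and 263, 193, 336, 262 and 351 CPM in DKO, and rose by 1.71 ± 0.34 (adjusted p = 0.003). The WT females held 269 and 328 CPM of Vnn1, within the range of DKO, and the 4 WT males held 23.9 to 102. Cyp4a14 stood at 13530, 13810, 13530, 15630 and 15940 CPM in DKO, above all WT libraries, but missed the threshold (log2 0.94 ± 0.41, adjusted p = 0.111), and its value was 0.28 without WT 2, WT 5 and MycKO 5.

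**Figure D4:**
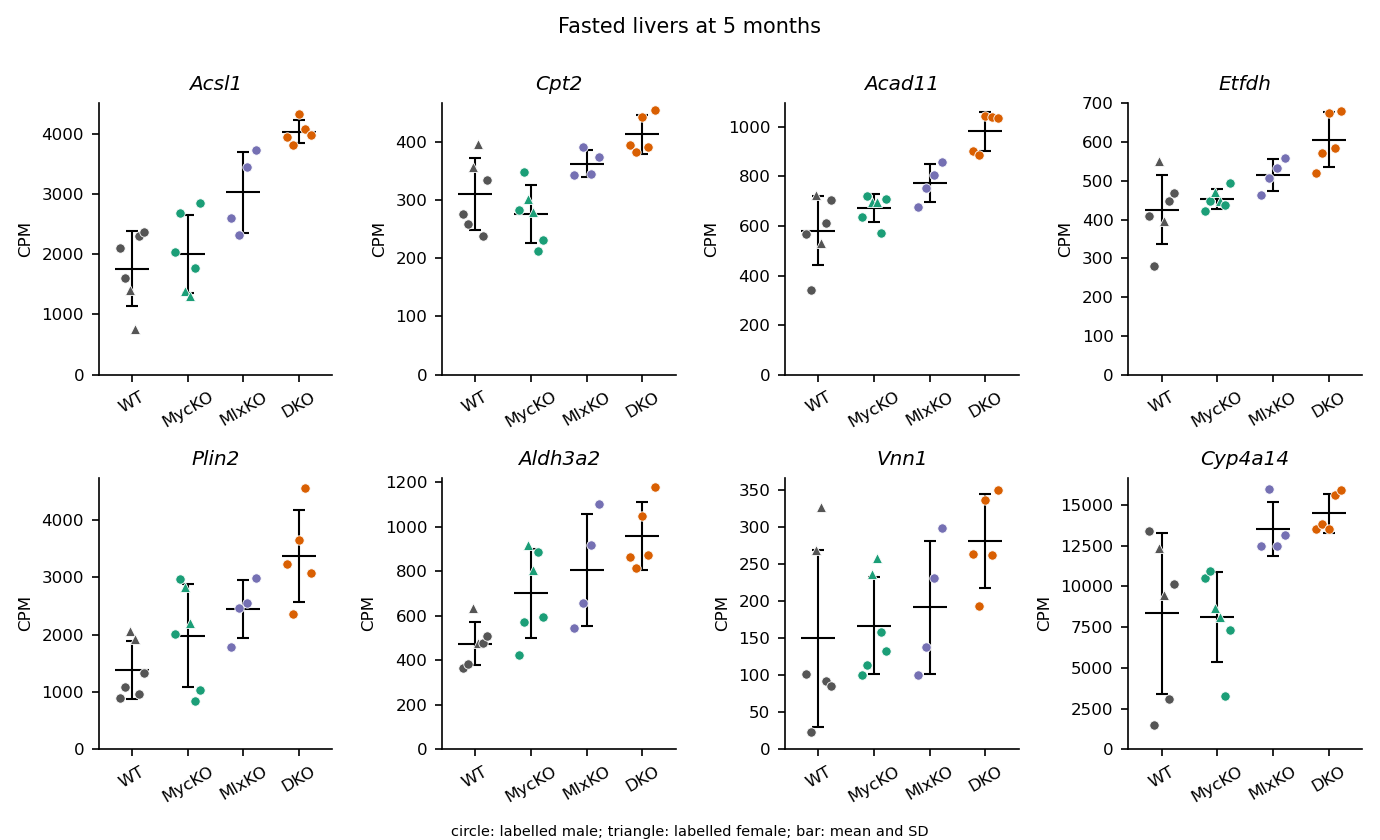
CPM of 8 members in every 5-month liver (circles labelled male, triangles labelled female), with the mean and SD of each group. Every DKO library lies above every WT library for Acsl1, Acad11, Plin2, Aldh3a2 and Cyp4a14, and the WT females lie within or near the DKO range for Cpt2 and Vnn1.

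Against MycKO, which shares the floxed Myc and the Cre-ERT2, 7 of 38 members were higher in DKO and 0 lower, where 4.36% of all genes were called higher, 7.52% lower and 11.9% in all. The comparison uses the same 5 DKO libraries as that with WT. Acsl1 rose by 0.76 ± 0.18 (adjusted p = 0.0119), Cpt2 by 0.67 ± 0.13 (adjusted p = 0.00457), Acad11 by 0.59 ± 0.16 (adjusted p = 0.0203) and Etfdh by 0.46 ± 0.14 (adjusted p = 0.0352). For these 4, and for Cyp4a10 and Cyp4a14, which were not called, every DKO library lay above every MycKO library, which held for 4.99% of all genes. Plin2 rose by 1.03 ± 0.27 and Vnn1 by 1.31 ± 0.32 (adjusted p = 0.0184 and 0.0141). Acsm3 stood at 77.3 to 125 CPM (median 89.0) in MycKO and 118, 139.8, 125, 112 and 153 CPM in DKO, and rose by 0.47 ± 0.14 (adjusted p = 0.0356). The groups overlapped for Plin2, Vnn1 and Acsm3, the last through MycKO 5. The authors' deposited FDR p was under 0.05 for 1 of the 38 members in this comparison, Acsl1 (0.0140). With the added term described further on 0 members were called, and without WT 2, WT 5 and MycKO 5 12 were. For these fits the share of all genes called is not given, so their counts are not set against all genes. Macrophage markers were lower at 9 of 11 (144 to 271 CPM in DKO against 368 to 628 in MycKO) and T and NK cell markers at 3 of 8 tested (1.66 to 4.40 against 4.86 to 10.8 CPM, with Trac at 0 in both groups). Genes higher in fed liver were lower at 6 of 14 tested (806 to 2401 against 1540 to 4916 CPM). Of 16 genes higher in fasted liver, some of them members, 0 were higher and 1 was lower (median log2 0.14). Hepatocyte markers were called at 0 of 10 (77240 to 109200 against 80340 to 125800 CPM). An unadjusted p under 0.05 was reached by 1 of the 10, and by 3923 of all 13397 genes. The part of these markers, and of the fed and fasted liver genes, in the members' rise was not tested.

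MlxKO against WT gave 2 calls, both higher, where 0.634% of all genes were called higher and 1.69% called at all. Plin2 rose by 1.14 ± 0.29 (adjusted p = 0.0472) and Aldh3a2 by 0.91 ± 0.21 (adjusted p = 0.033), and in both the groups overlapped. The authors' deposited FDR p was under 0.05 for 0 of the 38 members in this comparison (0.174 for Plin2 and 0.140 for Aldh3a2). The median of the 38 was 0.17, and 13 had an unadjusted p under 0.05, as did 2962 of all 13397 genes tested. Scaling by library totals raised the median of all genes by 0.16. None was called in males only, without the sex term, or without WT 2, WT 5 and MycKO 5, and leaving out single libraries gave 0 to 3 calls, with 0 without WT 1, WT 2, MycKO 3, MlxKO 2, MlxKO 3 or MlxKO 4. With the added term described further on neither gene was called (adjusted p = 0.313 for Plin2 and 0.117 for Aldh3a2), and 2 other members were called lower, Acads (−0.90, adjusted p = 0.0424) and Eci2 (−0.89, adjusted p = 0.0457). The simulated power was 78% for genes changed 2-fold and 20% for those changed 1.5-fold, over 13247 genes in this comparison, so smaller differences may not be detectable at this spread.

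No member was called in MycKO against WT by edgeR or DESeq2, where 0.0896% of all genes were called by edgeR. An unadjusted edgeR p under 0.05 was reached by 3 members and by 1027 of all 13397 genes. None was called in DKO against MlxKO by edgeR or DESeq2, with 0.0373% of all genes called by edgeR. Unadjusted, 2 members and 806 of all 13397 genes had an edgeR p under 0.05. Acsl1, Acadl, Acad11 and Cyp4a10 still lay higher in every DKO than in every MlxKO library, a pattern that 1.89% of all genes showed, with adjusted p of 0.806 to 0.984. In MlxKO against MycKO 0 were called by edgeR and 2 by DESeq2, with 2.38% of all genes called by edgeR. Unadjusted, 5 members and 2597 of all 13397 genes had an edgeR p under 0.05. The interaction set DKO and WT together against MycKO and MlxKO together. It was called at 0 members (edgeR, with 0 unadjusted and 0 by DESeq2) and at 0% of all genes, with 469 of 13397 genes at an unadjusted p under 0.05. Cre-ERT2 or strain sets WT apart from the knockouts and does not cancel in this contrast. The 0 calls therefore do not show that the single losses add up.

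Of the further genes of the pathway 8 of 48 tested were higher and 5 lower in DKO against WT, with a median log2 fold change of −0.01. The largest changes among those called were in the thioesterase Acot2 (log2 2.57 ± 0.36, adjusted p = 0.000165), the muscle-type carnitine palmitoyltransferase Cpt1b (2.48 ± 0.39, adjusted p = 0.000431), the carnitine transporter Slc22a5 (1.23 ± 0.25, adjusted p = 0.00285), and, lower, Slc25a29 (−1.49 ± 0.50) and Bdh2 (−1.42 ± 0.44), at adjusted p of 0.0435 and 0.0304. Of 41 further PPAR alpha axis genes tested, 15 were higher and 1 lower, with a median of 0.48. Pdk4, which restrains glucose oxidation, rose by 2.91 ± 0.71 and the peroxisomal Ehhadh by 2.17 ± 0.40 (adjusted p = 0.0092 and 0.00165). The peroxisomal or cytosolic thioesterases Acot3 and Acot1 rose by 1.99 ± 0.37 and 1.55 ± 0.30 (adjusted p = 0.00171 and 0.00248), and Plin4, a lipid droplet protein, by 1.61 ± 0.35 (adjusted p = 0.00483). Lpin1, a phosphatidate phosphatase and coactivator, fell by 4.05 ± 1.2 (adjusted p = 0.0258), and it ran from 14.0 to 803 CPM within WT. Of 14 tested genes higher in fed liver 5 were lower in DKO, and their sum over 15 genes was 806 to 2401 CPM in DKO and 1002 to 7763 in WT. Of 16 genes higher in fasted liver, some of them members, 1 was higher and 2 were lower in DKO (median log2 0.16). Macrophage markers were lower at 7 of 11 (144 to 271 against 194 to 528 CPM) and hepatocyte markers at 2 of 10 (77240 to 109200 against 93100 to 153600 CPM). Their part in the members' rise was not tested.

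The count in DKO against WT depended on the fit. Without WT 2, WT 5 and MycKO 5, 6 members were called (Acsl1, Acad11, Etfdh, Plin2, Aldh3a2 and Vnn1), all of them among the 10. A further fit added 1 term for MlxKO, DKO and the female WT libraries together, a grouping carried over from an earlier analysis of these data. Since MlxKO and DKO have terms of their own, it rests on the female-male gap in WT against that in MycKO. It thus uses the 2 females and 4 males of each, and the males include WT 2, WT 5 and MycKO 5. That difference in gap was −0.16 ± 0.35 (log2, SE) for Acsl1, −0.12 ± 0.39 for Aldh3a2 and 0.495 ± 0.215 for Acadl. In the fit with this term 2 members were higher (Acsl1 and Aldh3a2) and 2 lower (Acads and Etfb), and Acadl turned from 0.38 to −0.03. Acsl1 and Aldh3a2 were thus called in all 3 fits, at log2 0.90 to 1.10 and 1.16 to 1.26. In males alone 10 were called, all higher, with WT 2 and WT 5 among the 4 WT males of that fit. The 10 include Cyp4a10 (log2 1.23, adjusted p = 0.0372, edgeR), which stood at 0.37 (adjusted p = 0.396) without WT 2, WT 5 and MycKO 5. Scaling by library totals raised the median of all genes by 0.13 and called 14. The share of all genes called is not given for any of these alternative fits, so a changed count cannot be read as particular to the members. By the authors' deposited table, an FDR p under 0.05 was reached by 4 members in this comparison.

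**Figure D5:**
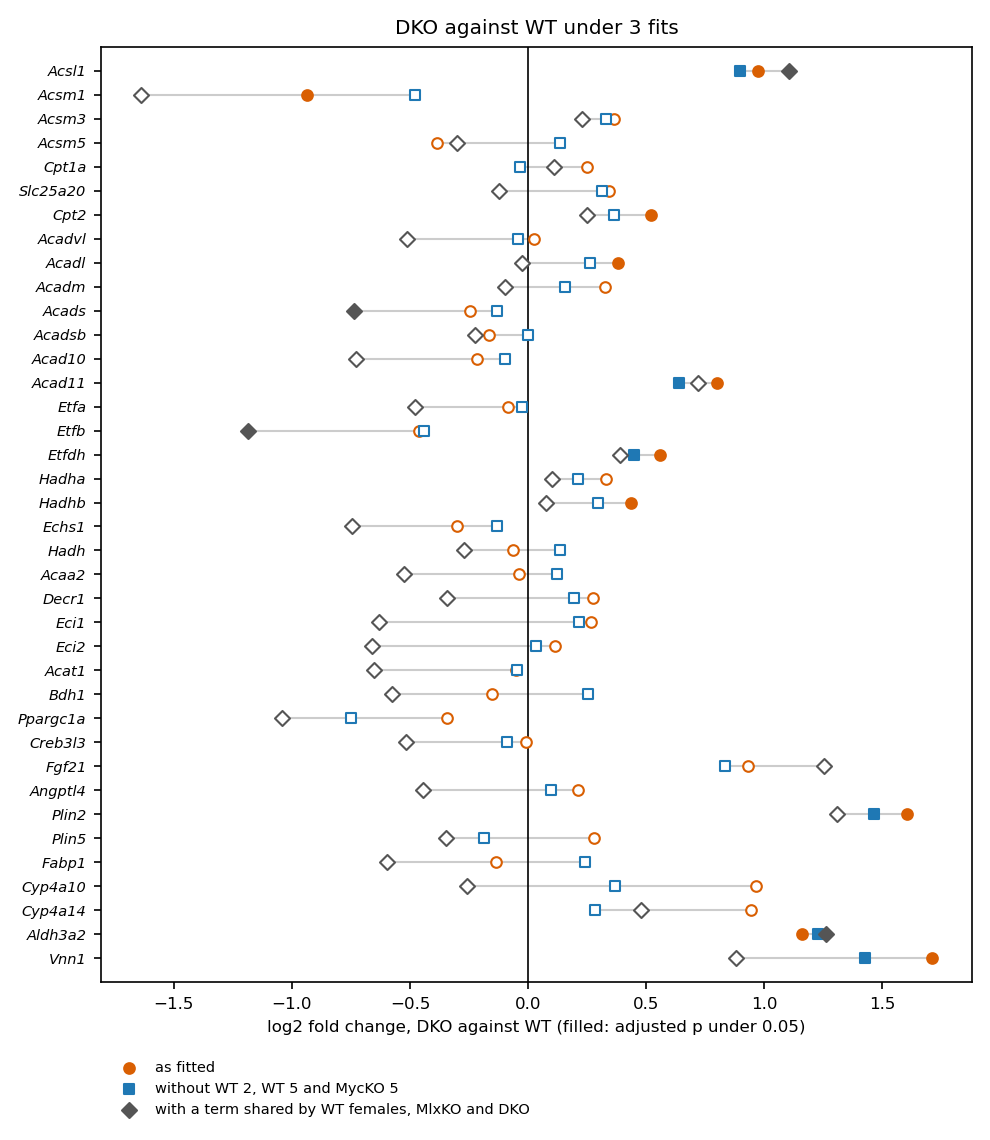
Log2 fold change of 38 members in DKO against WT in 3 fits, filled where the adjusted p was under 0.05. Acsl1 and Aldh3a2 are filled in all 3, whereas the diamonds of the fit with the shared term lie to the left of the other symbols for most enzymes.

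Sex was compared in the WT and MycKO livers, 4 females against 8 males, in the same fit. Of the members 2 were higher in females and 2 lower, where 1.34% of all genes were called higher, 2.13% lower and 3.48% in all. Vnn1 was 237 to 328 CPM in the 4 females and 23.9 to 158 in the 8 males (log2 1.5 ± 0.31, adjusted p = 0.00664). Fgf21 was 17.0 to 27.2 CPM in females and 2.23 to 14.9 in males (1.31 ± 0.36, adjusted p = 0.0456). Acsl1 was 765 to 1403 CPM in females and 1604 to 2846 in males (−0.87 ± 0.18, adjusted p = 0.00738). Acadsb was 50.5 to 76.8 CPM in females and 83.2 to 142 in males (−0.80 ± 0.14, adjusted p = 0.00131). The sexes did not overlap for any of the 4. These 4 were picked as called, and the share of all genes without overlap between the sexes was not computed. The 3 libraries with high fed-liver genes, WT 2, WT 5 and MycKO 5, are all labelled male, and without them 3 of the 4 were called and Fgf21 was not. In WT alone, 2 females against 4 males, 5 members were higher and 2 lower, where 1.51% and 2.58% of all genes were, 4.08% together. The lower were again Acsl1 and Acadsb, and the higher were Vnn1 and 4 enzymes. Eci1 stood at 331 and 333 CPM in the WT females and 154 to 179 in the males (0.98 ± 0.22, adjusted p = 0.0192). Acadvl stood at 792 and 957 CPM against 514 to 628 (0.60 ± 0.14, adjusted p = 0.0272). Decr1 stood at 374 and 366 CPM against 217 to 252 (0.63 ± 0.17, adjusted p = 0.0441), and Acadl at 425 and 399 CPM against 206 to 317 (0.59 ± 0.15, adjusted p = 0.0329). The WT females were above the WT males for all 4 enzymes, and 2 of those 4 males are WT 2 and WT 5. Here too the enzymes were picked as called, and the share of all genes so separated was not computed. Within MycKO 1 was called, Acadsb, lower in females, where 0.649% of all genes were called lower and 1.09% in all. The test of the difference between these 2 sex effects called 0 members by edgeR, 1 by DESeq2, and 0.0299% of all genes by edgeR. Unadjusted, 11 members and 1754 of all 13397 genes had an edgeR p under 0.05. Scaling by library totals raised the median of all genes in this comparison by 0.17 and called 11 members.

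With group and sex as the terms and all libraries, the members called in no comparison were Acsm5, Cpt1a, Acads, Eci2, Ppargc1a, Creb3l3, Angptl4, Cyp4a10 and Cyp4a14. Of these, Acads, Eci2, Cyp4a10 and Cyp4a14 were each called in at least 1 comparison under another fit. At 5 months Cpt1a ran from 344 to 1016 CPM in WT, 440 to 960 in MycKO, 745 to 871 in MlxKO and 719 to 1048 in DKO, so that the knockouts lay inside the WT range apart from DKO 4. Creb3l3 varied least of the members within DKO, at 456 to 506 CPM with a coefficient of variation of 3.79%. Ppargc1a ran from 3.22 to 13.7 CPM in WT and 6.07 to 9.69 in DKO. Angptl4 ran from 160 to 412 CPM in WT and 209 to 325 in DKO. Cyp4a10 ran from 1117 to 7956 CPM in WT, 2180 to 6109 in MycKO, 4594 to 6587 in MlxKO and 6734 to 10060 in DKO. Acsm5, Acads and Eci2 overlapped between all 4 groups, at 29.4 to 120.2 CPM, 141 to 256 CPM and 218 to 411 CPM over the 21 libraries.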

How the data were processed

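Poly(A)-selected, random-primed RNA of 31 mouse liver libraries in 6 groups was sequenced, per the labels' protocols, and, per the submitters' processing notes, handled on genome build GRCm38.p6. Aligner, counter and any use of strand were not given in the sources used here. Overlapping and antisense genes therefore cannot be told apart. The authors deposited whole-number counts per gene, TPM (scaled for gene length and depth), and their own log2 fold changes with FDR p-values. Of the deposited per-sample columns, 42 and 20 in the 2 tables were not used. Counts were tested with edgeR 4.0.16 in R 4.3.3 (quasi-likelihood, TMM scaling, filterByExpr with a minimum count of 10, terms for group and labelled sex, Benjamini-Hochberg adjusted p under 0.05 over all genes tested). Each table was fitted alone. SE is the log2 fold change over the square root of F. Because of the sex term, fold changes can differ from ratios of group values. DESeq2 1.42.0, limma 3.58.1 (voom), other scalings, no filter, no sex term, males only, fewer groups, an added term and left-out libraries were alternatives. The test was checked on simulated counts. Members and lists were chosen with earlier results of these data known. Members called in any comparison are named with their values, others by range, and up to 6 of the largest called genes of each further list are named. RefSeq promoters of GRCm38.p6 were matched by symbol.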

Additional observations from a re-analysis of the deposited data

Results flagged for a closer look

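In 12 of 226 member and group combinations tested (5.31%, where chance gives about 5%) 1 library lay far from the others of its group. In MycKO 5, Acsm3 at 124.9 CPM and Acaa2 at 1435 CPM lay far above the next library (91.3 and 942 CPM), and Cpt1a at 440.3 CPM lay far below it (794 CPM). This is also 1 of the 3 libraries with a high sum of genes known from fed liver. Plin5 was high in MlxKO 2 at 339.8 CPM, with the next at 245 CPM, and Ppargc1a in DKO 5 at 9.69 CPM, with the next at 6.55. In old WT 4 Acadm stood at 513.9 CPM and Fgf21 at 4.89 CPM, above 448 and 1.62 in the next, and Plin5 stood at 84.5 CPM in old WT 1, above 60.6. In adenoma 4 Etfb (204.9 CPM), Acaa2 (760.5 CPM) and Cyp4a10 (877 CPM) lay far above the next adenoma (142, 511 and 204 CPM), and in adenoma 2 Fabp1 did (285.8 against 189 CPM).

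For 11 members every MlxKO library lay on one side of the WT mean at 5 months and every adenoma on the other side of the old WT mean. The share of all genes with this pattern was not computed, so the count does not set the members apart. Of the 11, only Aldh3a2 was called in MlxKO against WT. The margin at 5 months could be small, as for Acadl, with its lowest MlxKO library at 322 CPM and the WT mean at 320 CPM. The 2 contrasts differ in age, feeding, Cre driver and tumour formation, and the difference between them was not tested. The log2 fold changes of MlxKO against WT and of adenoma against old WT were 0.56 and −1.92 for Acsl1, 0.25 and −0.68 for Acsm3, and 0.33 and −1.62 for Cpt2. They were 0.20 and −1.16 for Acadl, 0.42 and −0.94 for Acadm, and 0.46 and −1.14 for Acad11. They were 0.32 and −1.49 for Etfdh, 0.24 and −1.08 for Hadha, and 0.24 and −0.83 for Hadhb. They were 0.85 and −3.17 for Cyp4a14, which was called in neither, and 0.91 and −1.92 for Aldh3a2, the 1 gene of the 11 called in both.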

How the results depend on the processing

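No paired analysis was possible because the replicate numbers follow accession order and mark no shared animal or batch. In MlxKO against WT the 2 became 4 by DESeq2, 1 with the compared groups only, 2 other members (Acads and Eci2, both lower) with the term shared by WT females, MlxKO and DKO, and 0 without the sex term, in males only, or without WT 2, WT 5 and MycKO 5. In DKO against WT the 10 became 4 with the shared term and 6 without those 3 libraries. In DKO against MycKO the 7 became 13 by DESeq2, 0 with the shared term and 12 without the 3 libraries. In MlxKO against MycKO 0 became 1 with library totals and 2 by DESeq2. For sex the 4 became 11 with library totals and 1 with the shared term, and for its difference between WT and MycKO 0 became 1 by DESeq2. In the adenomas 25 became 4 in females only, a fit chosen after seeing the data with 6 libraries. Leaving out single libraries gave 0 to 3 calls in MlxKO against WT, 7 to 12 in DKO against WT, 5 to 9 in DKO against MycKO, 0 to 1 in MlxKO against MycKO (1 without MycKO 2), 2 to 5 for sex (2 without WT 4) and 13 to 28 in the adenomas, and 0 to 0 in the other 4. The share of all genes called is given for the main fit only, so these changes in count cannot be read as particular to the members. Acadl in DKO against WT reversed to −0.028 with the shared term. Of 1151 recomputed fold changes of called members, 943 kept their direction and call, 207 kept the direction only and 1 reversed. Beyond fewer libraries, the cause was not tested. Adenoma totals were about double those of old WT, and 81.0 to 83.1% of their low counts were even. Halving them left the 25 calls. In simulated adenoma data over 13767 genes, 16% of 2-fold changes were recovered. Only 100 genes were changed 2-fold and 100 changed 1.5-fold there, whereas 16.4% of all genes were called in the data. An adjusted p under 0.05 was thus harder to reach in the simulation, and the 16% is not the power of the adenoma comparison.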
